A study of Homo sapiens with 9 samples.

Results

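The MYC-MAX-MXD network was described in MOLM13 cells with raised, lowered and unaltered RBM5, through the 9 genes MYC, MYCN, MAX, MXD1, MXD3, MXD4, MXI1, MNT and MGA, chosen by symbol from 57820 named genes. Total RNA depleted of ribosomal RNA was sequenced in 9 libraries of this established acute myeloid leukaemia line, driven by a KMT2A fusion together with FLT3-ITD. RBM5 OE cells (n = 3) carried a lentiviral vector with RBM5 cDNA and a Venus reporter under an EFS promoter. RBM5 KO cells (n = 3) expressed Cas9 with RBM5-sg1, as a transduced population and not as a clone. CTRL cells (n = 3) received a non-targeting sgRNA in place of RBM5-sg1. The labels name neither the day of harvest nor an empty-vector control for RBM5 OE, and whether RBM5 OE cells also carried Cas9 is not given in the sources used here.

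MYC is a helix-loop-helix transcription factor that binds DNA only as a dimer with MAX, mostly at the E-box CACGTG. MXD1, MXD3, MXD4, MXI1, MNT and MGA compete for the same partner and the same sites, and their dimers with MAX recruit corepressors instead of coactivators. In haematopoietic cells MYC is associated with growth and proliferation, whereas MXD proteins are associated with cell cycle exit and differentiation. MYC is a dependency of KMT2A-rearranged leukaemia. RBM5 itself binds RNA and takes part in early steps of splicing.

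The network can act on its own genes through E-boxes, so promoters of 4 antagonists are shown: MXD1 and MXD3, which were higher in RBM5 OE than in CTRL, MXD4, which was lower, and MNT, which did not pass the test. Each is a RefSeq window of 300 bases on GRCh38.p14, with 250 bases before the annotated start and 50 after it, written along the gene's strand. Capitals mark CACGTG, and a second E-box, CAGCTG, was also searched. Both read the same on both strands. The windows are chr2:69914859-69915158 for MXD1, chr5:177312703-177313002 for MXD3, chr4:2262060-2262359 for MXD4 and chr17:2401011-2401310 for MNT.
MXD1: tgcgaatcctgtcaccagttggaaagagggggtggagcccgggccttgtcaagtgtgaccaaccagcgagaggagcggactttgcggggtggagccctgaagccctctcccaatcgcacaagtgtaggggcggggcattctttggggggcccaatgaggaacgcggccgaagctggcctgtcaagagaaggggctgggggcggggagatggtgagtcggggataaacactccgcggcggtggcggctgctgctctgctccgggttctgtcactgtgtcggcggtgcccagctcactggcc
MXD3: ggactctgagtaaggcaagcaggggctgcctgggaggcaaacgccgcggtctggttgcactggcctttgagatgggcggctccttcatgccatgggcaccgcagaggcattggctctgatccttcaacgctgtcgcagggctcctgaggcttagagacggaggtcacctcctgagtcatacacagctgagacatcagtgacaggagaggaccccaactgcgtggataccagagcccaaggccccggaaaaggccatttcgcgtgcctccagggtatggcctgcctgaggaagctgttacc
MXD4: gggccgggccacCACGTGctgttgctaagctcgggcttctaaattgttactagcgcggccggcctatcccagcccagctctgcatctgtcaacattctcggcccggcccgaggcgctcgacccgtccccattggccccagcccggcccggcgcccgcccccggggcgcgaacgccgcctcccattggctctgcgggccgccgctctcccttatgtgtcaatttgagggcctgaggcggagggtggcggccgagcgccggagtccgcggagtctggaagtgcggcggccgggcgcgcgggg
MNT: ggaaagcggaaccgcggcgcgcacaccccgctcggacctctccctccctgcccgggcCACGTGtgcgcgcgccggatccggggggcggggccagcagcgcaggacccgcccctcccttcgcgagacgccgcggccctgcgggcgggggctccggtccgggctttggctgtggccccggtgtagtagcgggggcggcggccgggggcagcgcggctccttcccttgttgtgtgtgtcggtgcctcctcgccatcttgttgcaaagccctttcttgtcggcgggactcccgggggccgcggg
CACGTG occurred in the windows of MXD4 and MNT and not in those of MXD1 and MXD3. Windows of MXI1, MAX, MGA and MYCN, not shown, held no CACGTG either, and MYC had no window. Of these, MXI1 was higher in RBM5 OE than in CTRL, while MAX and MGA did not pass the test. Of 8 members with a window in the table, 2 held these letters, against 8.77% of all 27305 genes with a window. Of the 73 MYC target genes used here, 64 had a window and 24 of them (37.5%) held CACGTG. The second motif, CAGCTG, occurred in windows of MXD3 and MGA, 2 of the 8 members, against 21.1% of all genes with a window and 20.3% of the target genes. A match is a description of the letters and not a bound site.

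The RNA of RBM5 followed the labels. Its counts scaled to library size (CPM, with TMM scaling) were 380, 414 and 416 in RBM5 OE, 70.5, 73.9 and 79.4 in RBM5 KO, and 122, 117 and 113 in CTRL. The groups did not overlap. The log2 fold change to CTRL was 1.78 in RBM5 OE (standard error, SE, 0.068, adjusted p = 4.11e-08) and −0.65 in RBM5 KO (SE 0.084, adjusted p = 0.00692). When CTRL replicate 1 was left out, the adjusted p in RBM5 KO became 0.0606. The counts do not separate vector transcripts from those of the RBM5 locus. They also do not measure RBM5 protein, which the paper reports as reduced with RBM5-sg1 by immunoblot.

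All 9 libraries were deep, with 25969189 to 27826523 counts in RBM5 OE, 27304730 to 27871975 in RBM5 KO and 25522936 to 26395681 in CTRL. Myeloid markers were present in every library (summed TPM of 9 markers 1808 to 1870 in RBM5 OE, 2987 to 3352 in RBM5 KO and 2378 to 2519 in CTRL). Among the 9, LYZ had the widest range over all libraries, 481 to 2070 TPM, and SPI1 the next widest, 319 to 439. The differences in the sum therefore mostly follow LYZ. Of the markers of other cell types, 4 epithelial genes summed to 9.19 to 12.25 TPM in RBM5 OE, 12.8 to 13.1 in RBM5 KO and 10.3 to 14.2 in CTRL, with KRT8 and KRT18 present in every library and EPCAM at 0 counts in all. The T cell, B cell, erythroid, megakaryocyte and fibroblast lists each summed to at most 4.46 TPM in any library, with CD3D, CD79A, ITGA2B, COL1A1 and COL1A2 present in every library and HBB and PF4 at 0 counts in all. RBM5 KO replicate 1 and CTRL replicate 3 stood apart from the rest of their groups on the second principal component, with type I interferon genes lower by a median log2 of −1.46 in the RBM5 KO library and −1.55 in the CTRL library. In these bulk samples fewer cells of a type and less RNA per cell cannot be told apart.

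Genes were called by edgeR's quasi-likelihood test where the p-value, adjusted by Benjamini-Hochberg across the whole table, was under 0.05. Enough reads for the test were found for 8 of the 9 members. MYCN, the neuronal MYC paralogue (GRCh37 chromosome 2, 16080672 to 16087129, plus strand), had 1 read in RBM5 KO replicate 3 and 0 in every other library. In RBM5 OE against CTRL, 3 members rose (MXD1, MXD3 and MXI1) and 2 fell (MYC and MXD4), where 40.1% of 14370 genes were called, 19.8% higher and 20.2% lower. Only MYC was called in RBM5 KO against CTRL, as lower, where 2.51% of 14218 genes were called, 0.837% higher and 1.67% lower. Between RBM5 OE and RBM5 KO, MXD1 and MXD3 rose and MXD4 and MGA fell in RBM5 OE, where 40.1% of 14754 genes were called, 19.5% higher and 20.6% lower. The groups did not overlap in CPM for 5 members in RBM5 OE against CTRL (51.7% of all genes tested), 2 in RBM5 KO against CTRL (22.9%) and 6 in RBM5 OE against RBM5 KO (52.6%). The comparisons share libraries, so their member counts are not independent of each other.

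**Figure D1:**
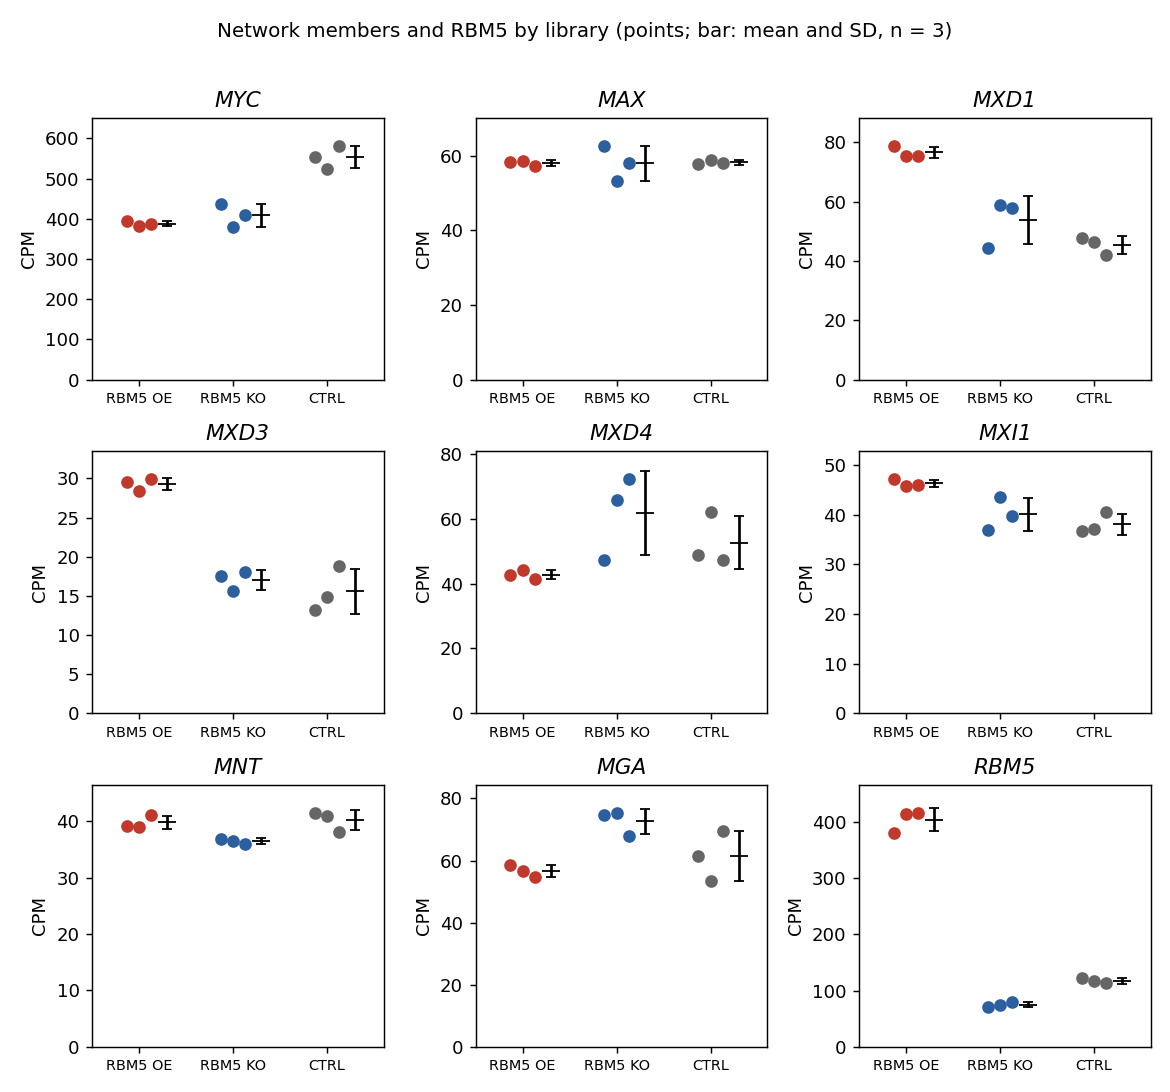
Expression of the 8 tested network members and RBM5 in each library, in CPM on axes from 0, for RBM5 OE, RBM5 KO and CTRL (points are libraries, the bar beside them is the mean with SD, n = 3). MYC lay at 383 to 394 CPM in RBM5 OE and 379 to 436 in RBM5 KO, below the 525 to 582 of CTRL, while MAX stayed between 53.3 and 62.7 in all 9 libraries.

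MYC, the activator of the network (GRCh37 chromosome 8, 128747680 to 128755197, plus strand), was lower than in CTRL both with raised and with lowered RBM5. It had 394, 383 and 388 CPM in RBM5 OE, 436, 379 and 411 CPM in RBM5 KO, and 555, 525 and 582 CPM in CTRL. Every RBM5 OE and RBM5 KO library lay below every CTRL library, and the RBM5 OE range lay within the RBM5 KO range. MYC fell in RBM5 OE against CTRL by a log2 fold change of −0.51 (SE 0.062, adjusted p = 9.44e-05), which is a level 0.702 times that of CTRL. The fall in RBM5 KO against CTRL was −0.44 (SE 0.086, adjusted p = 0.0363), 0.737 times the CTRL level. Both falls were measured against the same CTRL libraries, so they are not independent of each other.

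The direct comparison of MYC in RBM5 OE with RBM5 KO gave −0.07 (SE 0.071, adjusted p = 0.449), so a difference between these groups was not detectable here. The fall in RBM5 OE was called under all 16 alternatives, with log2 fold changes of −0.55 to −0.47. The fall in RBM5 KO kept its size, −0.49 to −0.40, but was called in 9 of 17 alternatives. Without CTRL replicate 1 its adjusted p was 0.177, without CTRL replicate 2 it was 0.0855, without CTRL replicate 3 it was 0.104, and without RBM5 KO replicates 2 or 3 it was 0.13 or 0.14. Within their groups MYC was highest in RBM5 KO replicate 1 and in CTRL replicate 3.

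On a per-length scale MYC was the most abundant member in every group. It averaged 222 ± 1.49 TPM in RBM5 OE, 229 ± 15.3 TPM in RBM5 KO and 309 ± 28 TPM in CTRL (SD, n = 3 each). By mean TPM it ranked 508 in RBM5 OE, 502 in RBM5 KO and 369 in CTRL among 14754 genes.

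MAX, the obligate partner (GRCh37 chromosome 14, 65472892 to 65569413, minus strand), did not pass the test in any comparison. It had 58.3, 58.6 and 57.3 CPM in RBM5 OE, 62.7, 53.3 and 58.1 CPM in RBM5 KO, and 57.7, 59 and 58.1 CPM in CTRL. The 3 groups overlapped, with means of 58.1 in RBM5 OE, 58 in RBM5 KO and 58.3 in CTRL. The SE of its log2 fold change was 0.065 in RBM5 OE and 0.09 in RBM5 KO against CTRL. In TPM, which also carries RSEM's estimate of transcript length, MAX averaged 53.7 ± 5.46 in RBM5 OE, 48.1 ± 1.31 in RBM5 KO and 56.9 ± 8.14 in CTRL, again with overlapping libraries. MAX shares 822 exonic bases with FNTB on the opposite strand, and reads there cannot be assigned by strand.

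Of the MXD family, MXD1 and MXD3 rose in RBM5 OE, MXD4 fell, and MXI1 rose by the smallest amount of the 3 that rose. MXD1 (chromosome 2, 70124820 to 70170077, plus) is a MYC antagonist that is induced during myeloid differentiation. It had 78.9, 75.6 and 75.5 CPM in RBM5 OE, 44.4, 59.1 and 57.9 CPM in RBM5 KO, and 47.8, 46.5 and 42.1 CPM in CTRL. All RBM5 OE libraries were above all others, and RBM5 KO replicate 1 lay among the CTRL libraries. The log2 fold change in RBM5 OE was 0.76 against CTRL (SE 0.073, adjusted p = 2.02e-05) and 0.51 against RBM5 KO (SE 0.11, adjusted p = 0.00243), and these calls were made under all 16 and all 20 alternatives. For RBM5 KO against CTRL it was 0.24 (SE 0.12, adjusted p = 0.364). Without RBM5 KO replicate 1 it was 0.36 (adjusted p = 0.0418), and without that library and CTRL replicate 3 together it was 0.31 (adjusted p = 0.0366).

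MXD3 (chromosome 5, 176728462 to 176739758, minus), a family member expressed in proliferating cells around S phase, had the largest range of group means. It had 29.5, 28.4 and 29.9 CPM in RBM5 OE, 17.5, 15.6 and 18 CPM in RBM5 KO, and 13.2, 14.9 and 18.8 CPM in CTRL. The RBM5 OE libraries stood above all others, whereas RBM5 KO and CTRL overlapped. The log2 fold change in RBM5 OE was 0.91 against CTRL (SE 0.12, adjusted p = 0.000142) and 0.78 against RBM5 KO (SE 0.12, adjusted p = 0.00046). For RBM5 KO against CTRL it was 0.13 (SE 0.15, adjusted p = 0.706).

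MXD3 counts were fractional in 9 of 9 libraries, which means that RSEM divided reads between MXD3 and other genes. Its exons share 1148 bases with PRELID1 on the opposite strand and 926 bases with RAB24 on the same strand. PRELID1 had a log2 fold change of −0.05 in RBM5 OE against CTRL (SE 0.0695, adjusted p = 0.619), and RAB24 had 0.43 (SE 0.096, adjusted p = 0.00421). RAB24 also rose in RBM5 OE, and the part of shared reads in the MXD3 result was not tested.

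MXD4 (chromosome 4, 2249159 to 2263836, minus), another repressor of the family, was lower in RBM5 OE. It had 42.8, 44.1 and 41.5 CPM in RBM5 OE, 47.3, 65.6 and 72.1 CPM in RBM5 KO, and 48.8, 62 and 47.1 CPM in CTRL. The RBM5 OE libraries were the lowest 3, and the other groups overlapped widely. In RBM5 OE the log2 fold change was −0.30 against CTRL (SE 0.10, adjusted p = 0.034) and −0.53 against RBM5 KO (SE 0.15, adjusted p = 0.0131). The call against CTRL was lost under 8 of 16 alternatives, with adjusted p up to 0.142. It was −0.17 (adjusted p = 0.106) without CTRL replicate 2, and the adjusted p was 0.0882, 0.0758 or 0.101 without RBM5 OE replicate 1, 2 or 3. Without RBM5 KO replicate 3 the adjusted p against RBM5 KO was 0.0571. MXD4 was lowest of its group in RBM5 KO replicate 1 and in CTRL replicate 3.

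MXI1 (chromosome 10, 111967363 to 112047123, plus), the family member also called MXD2, had 47.1, 45.8 and 46 CPM in RBM5 OE, 36.9, 43.6 and 39.8 CPM in RBM5 KO, and 36.7, 37.1 and 40.5 CPM in CTRL. RBM5 OE libraries lay above all others by a narrow margin in CPM, and overlapped RBM5 KO in TPM. The log2 fold change in RBM5 OE was 0.28 against CTRL (SE 0.073, adjusted p = 0.00921) and 0.21 against RBM5 KO (SE 0.082, adjusted p = 0.0618), where it was called without RBM5 KO replicate 2 (0.27, adjusted p = 0.0312). On the log2(TPM + 1) scale with limma the adjusted p against CTRL was 0.0618.

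MNT and MGA are larger proteins that also use MAX. MNT (chromosome 17, 2287367 to 2304398, minus) is an antagonist that proliferating and resting cells both express. It had 39.2, 39.1 and 41.1 CPM in RBM5 OE, 36.9, 36.5 and 35.9 CPM in RBM5 KO, and 41.5, 40.9 and 38.2 CPM in CTRL. RBM5 KO was the lowest group without overlap in CPM, though not in TPM. Its log2 fold change of −0.14 against CTRL did not pass (SE 0.087, adjusted p = 0.454). In RBM5 OE against CTRL it was −0.01 (SE 0.072).

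MGA (chromosome 15, 41913332 to 42065279, plus), which joins MAX in a variant Polycomb complex, had 58.5, 56.7 and 54.7 CPM in RBM5 OE, 74.7, 75.4 and 67.9 CPM in RBM5 KO, and 61.5, 53.3 and 69.5 CPM in CTRL. The CTRL libraries spanned the gap between the other groups. MGA fell in RBM5 OE against RBM5 KO by −0.36 on the log2 scale (SE 0.096, adjusted p = 0.0112) and did not pass against CTRL in RBM5 OE (−0.11, SE 0.094, adjusted p = 0.362) or RBM5 KO (0.24, SE 0.11, adjusted p = 0.308). Without RBM5 KO replicate 1 and CTRL replicate 3 together it was called higher in RBM5 KO against CTRL (0.32, adjusted p = 0.0369). Without RBM5 OE replicate 3 the adjusted p between RBM5 OE and RBM5 KO was 0.0527.

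**Figure D2:**
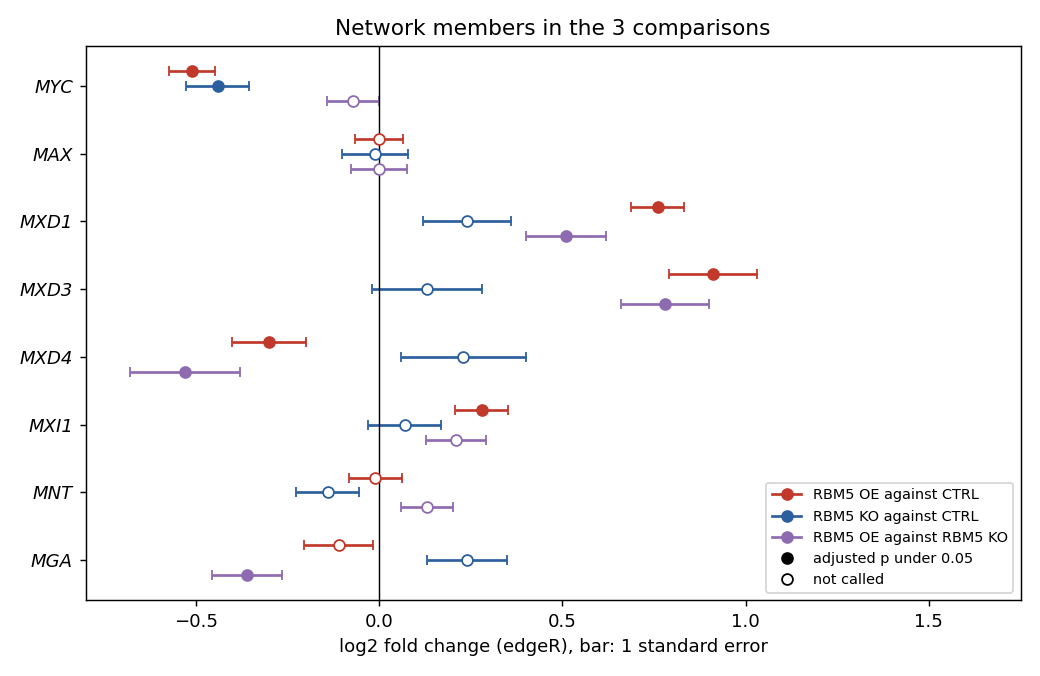
The log2 fold change of each tested member, with 1 SE, in RBM5 OE against CTRL, RBM5 KO against CTRL and RBM5 OE against RBM5 KO (filled points were called). MXD3 reaches 0.91 and MXD1 0.76 in RBM5 OE against CTRL, MYC lies at −0.51 in RBM5 OE and −0.44 in RBM5 KO, and MAX lies at 0.

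The order of levels within the network was compared in TPM. In RBM5 OE it was MYC, MAX, MXD3, MXI1, MXD1, MXD4, MNT and MGA, and the libraries of neighbours overlapped only for MXD4 and MNT. In RBM5 KO it was MYC, MAX, MXI1, MXD4, MXD3, MXD1, MNT and MGA, with overlap of MXI1 with MXD4, MXD4 with MXD3, and MXD1 with MNT. In CTRL it was MYC, MAX, MXI1, MXD3, MXD4, MNT, MXD1 and MGA, with overlap of MXI1 with MXD3, MXD3 with MXD4, and MNT with MXD1. By mean TPM, MXD3 was in place 3 in RBM5 OE, 5 in RBM5 KO and 4 in CTRL.

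As a description of the balance, MYC took 66.2, 64.6 and 65.4% of the summed TPM of MYC and its antagonists in RBM5 OE, 74.9, 67.4 and 69.5% in RBM5 KO, and 77.9, 77 and 78.3% in CTRL. In TPM every RBM5 OE library had a lower share than every RBM5 KO library. The RBM5 KO libraries lay below CTRL, with RBM5 KO replicate 1 nearest to it. With CPM in place of TPM the RBM5 OE and RBM5 KO libraries overlapped in this share. The ratio of MYC to summed antagonists was 1.89 ± 0.07 in RBM5 OE, 2.44 ± 0.476 in RBM5 KO and 3.5 ± 0.131 in CTRL (SD, n = 3 each). Summed antagonists averaged 117 ± 3.66 TPM in RBM5 OE, 95.3 ± 11.5 TPM in RBM5 KO and 88.3 ± 4.71 TPM in CTRL.

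The make-up of the antagonists also differed. MXD3 made up 32 ± 1.8% of antagonist TPM in RBM5 OE, 20.1 ± 1.96% in RBM5 KO and 20.1 ± 4.68% in CTRL. MXD4 made up 11.3 ± 0.346% in RBM5 OE, 20.4 ± 2.46% in RBM5 KO and 18.9 ± 4.35% in CTRL. No library of RBM5 OE overlapped the other groups in either share. The TPM of MXD3 rests on reads that RSEM divided with other genes, as do its place in the order and the sums above. Its log2 fold change in RBM5 OE against CTRL was 0.91 on counts and 1.06 on the log2(TPM + 1) scale.

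**Figure D3:**
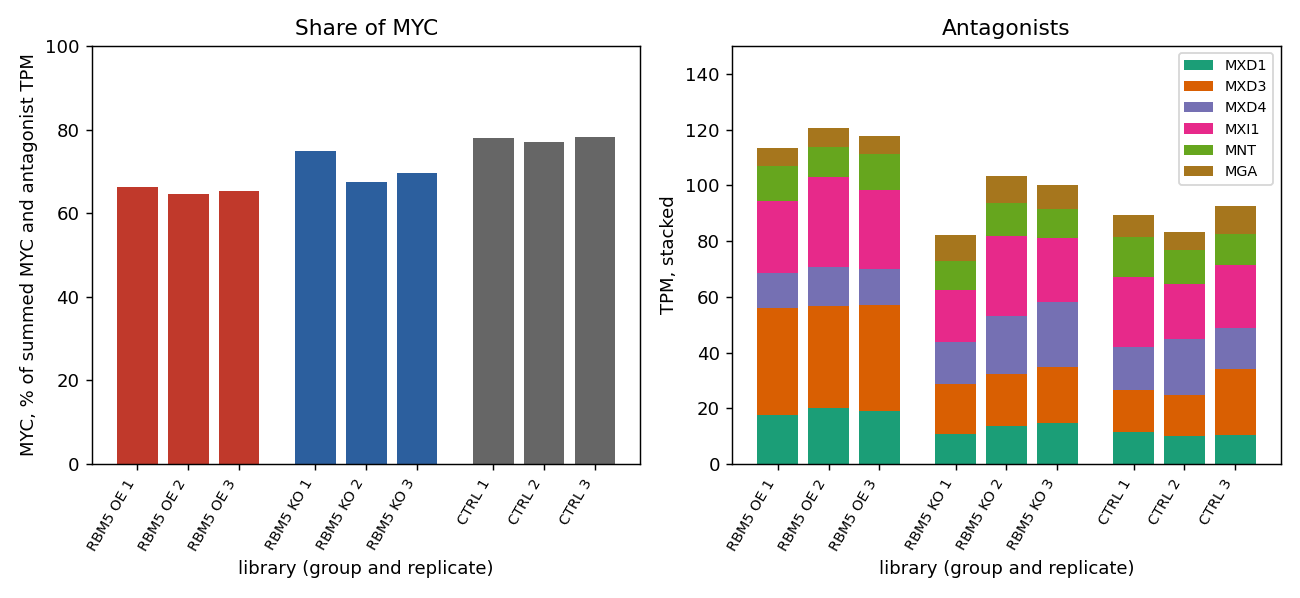
Left, the share of MYC in the summed TPM of MYC and its antagonists, in percent, per library. Right, the TPM of MXD1, MXD3, MXD4, MXI1, MNT and MGA, stacked per library. The share of MYC is 64.6 to 66.2% in RBM5 OE, 67.4 to 74.9% in RBM5 KO and 77 to 78.3% in CTRL, and the stacks are tallest in RBM5 OE (113 to 121 TPM).

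The extended network holds MYCL and the glucose-sensing branch, in which MLX is the partner of MLXIP (MondoA) and MLXIPL (ChREBP). MLXIPL had 31.6, 29.1 and 30.3 CPM in RBM5 OE, 3.62, 3.57 and 4.79 CPM in RBM5 KO, and 8.08, 7.73 and 9.49 CPM in CTRL. In CPM it followed RBM5 RNA in both directions without overlap. Its log2 fold change against CTRL was 1.85 in RBM5 OE (SE 0.1) and −1.08 in RBM5 KO (SE 0.18, adjusted p = 0.0187). In TPM RBM5 KO replicate 3 (4.82) lay above CTRL replicates 1 (4.52) and 2 (4.7). The other 3 genes fell in RBM5 OE against CTRL, MYCL by −0.39 (adjusted p = 0.0196), MLX by −0.33 and MLXIP by −0.35. None of these 3 was called in RBM5 KO against CTRL, where MYCL had 0.22, MLX −0.07 and MLXIP 0.08.

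The genes whose log2 CPM, centred over the 9 libraries, lay nearest to MYC were SLC39A14 (root mean square difference 0.0569), EML3 (0.0685) and GOLGA8Q (0.0735), where the median of 14754 genes was 0.338. SLC39A14, a zinc and iron transporter, averaged 124 CPM in RBM5 OE, 138 in RBM5 KO and 177 in CTRL. GOLGA8Q belongs to a family of near-identical copies, so its reads are uncertain. Nearest to MXD3 were TROAP (0.105), OIP5 (0.111) and ORM1 (0.114), against a median of 0.497. TROAP, a spindle-associated protein, averaged 49.3 CPM in RBM5 OE, 32.8 in RBM5 KO and 27.5 in CTRL, and OIP5, a centromere protein, averaged 22.4 CPM in RBM5 OE, 14.5 in RBM5 KO and 12.7 in CTRL.

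Genes that MYC-MAX dimers are known to activate were mostly lower in RBM5 OE than in CTRL or RBM5 KO. Over all genes tested, 19.8% were called higher and 20.2% lower in RBM5 OE against CTRL. The shares were 0.837% and 1.67% in RBM5 KO against CTRL, and 19.5% and 20.6% in RBM5 OE against RBM5 KO. They apply to each gene list that follows. Of 73 targets in 4 lists, 55 fell and 1 rose in RBM5 OE against CTRL (median log2 fold change −0.46, against 0.01 over all genes tested), and without CTRL replicate 3 the count that rose was 5. By edgeR 0 were called in either direction in RBM5 KO against CTRL (median −0.02, against 0.01, with 7 at an unadjusted p under 0.05), 1 was lower with DESeq2, and the count lower was 8 without RBM5 KO replicate 1 and 9 without that library and CTRL replicate 3. In RBM5 OE against RBM5 KO 50 fell and 3 rose (median −0.47), and without RBM5 KO replicate 1 the count that rose was 10. Beside these counts, the log2 fold change of MYC to CTRL was −0.51 in RBM5 OE and −0.44 in RBM5 KO. The counts of these fits are not alike, since 40.1% of all genes were called in RBM5 OE and 2.51% in RBM5 KO. Whether the level of MYC bears on the targets was not tested.

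In ribosome biogenesis 21 of 26 genes fell and 0 rose in RBM5 OE against CTRL (median −0.52). BOP1, needed for the large ribosomal subunit, had 165 ± 18.2 CPM in RBM5 OE and 368 ± 28.3 CPM in CTRL (log2 fold change −1.15, SE 0.089, adjusted p = 5.06e-06). MYBBP1A and RRP9, a nucleolar regulator and an rRNA processing factor, fell by −0.95 and −1.07. Against RBM5 KO, 20 fell and 1 rose, among them POLR1B, a subunit of RNA polymerase I (−0.70, SE 0.082, adjusted p = 6.66e-05), and the rRNA methyltransferase NOP2 (−0.70). The smallest p in RBM5 KO against CTRL belonged to NOB1, with −0.30 (adjusted p = 0.146).

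In nucleotide and polyamine synthesis 12 of 17 genes fell and 0 rose in RBM5 OE against CTRL (median −0.53). GART, a purine synthesis enzyme, had 94.4 ± 1.48 CPM in RBM5 OE and 159 ± 3.16 CPM in CTRL (−0.75, SE 0.061, adjusted p = 6.97e-06). PRPS1, which makes the ribose donor, fell by −0.67, and SRM, the spermidine synthase, by −0.55. Against RBM5 KO 10 fell and 0 rose, with GART at −0.76, UMPS of pyrimidine synthesis at −0.78 and PPAT of purine synthesis at −0.84. The pyrimidine enzyme DHODH had −0.33 in RBM5 KO against CTRL (adjusted p = 0.228).

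In translation, chaperones and glycolysis 17 of 18 genes fell and 0 rose in RBM5 OE against CTRL (median −0.48). HSPE1, a mitochondrial chaperonin, had 32.5 ± 2.82 CPM in RBM5 OE and 87.2 ± 6.51 CPM in CTRL (−1.42, SE 0.088, adjusted p = 1.33e-06). LDHA, the lactate dehydrogenase subunit, had 350 ± 1.59 CPM in RBM5 OE, 820 ± 103 CPM in RBM5 KO and 696 ± 36.9 CPM in CTRL, a fall of −0.99 in RBM5 OE against CTRL (SE 0.061) and 0.24 in RBM5 KO against CTRL (adjusted p = 0.287). The scaffold of cap-dependent initiation, EIF4G1, fell by −0.75.

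Cell cycle targets were mixed, with 5 of 12 lower and 1 higher in RBM5 OE against CTRL (median −0.24). SKP2, a ubiquitin ligase subunit, had 14.1 ± 1.35 CPM in RBM5 OE, 32.4 ± 8.63 CPM in RBM5 KO and 32.5 ± 4.62 CPM in CTRL, a fall of −1.20 in RBM5 OE against CTRL (SE 0.12, adjusted p = 2e-05). TFAP4, a direct MYC target that encodes a transcription factor, fell by −0.68, and E2F2 rose by 0.63. CCND2, a G1 cyclin, rose by 0.60 in RBM5 OE against RBM5 KO and had −0.42 in RBM5 KO against CTRL (adjusted p = 0.136).

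Cell division genes, a list apart from the targets, moved the other way. Over all genes tested in RBM5 OE against CTRL, 19.8% rose and 20.2% fell. Of 12 genes, 11 rose and 0 fell in RBM5 OE against CTRL (median 0.58), among them the centromere motor CENPE (1.38, SE 0.095, adjusted p = 2.6e-06), CENPF (0.85) and the mitotic kinase PLK1 (0.84). DNA replication genes had 7 of 12 lower and 1 higher (median −0.33), with the helicase subunits MCM4 at −0.86, MCM2 at −0.63 and MCM5 at −0.49. The count of replication genes higher was 0 without CTRL replicate 1 or 2 or RBM5 OE replicate 1 or 2. For RBM5 KO against CTRL 0 genes of both lists were called by edgeR, and without RBM5 KO replicate 1 the count of DNA replication genes lower was 5.

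**Figure D4:**
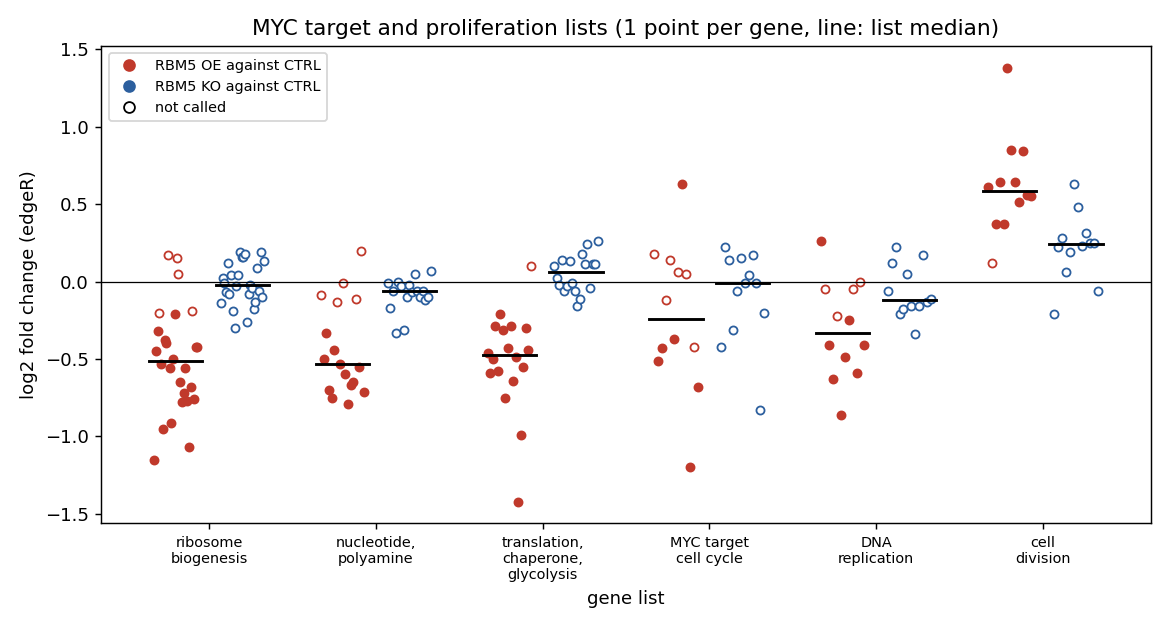
The log2 fold change of each tested gene of 4 MYC target lists, DNA replication and cell division in RBM5 OE against CTRL and RBM5 KO against CTRL (filled points were called, lines are list medians). The medians of the first 3 lists lie at −0.52, −0.53 and −0.48 in RBM5 OE and at −0.03, −0.06 and 0.06 in RBM5 KO, and cell division lies at 0.58 in RBM5 OE and 0.24 in RBM5 KO.

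Of 17 coactivators of MYC, 2 rose and 3 fell in RBM5 OE against CTRL, where 40.1% of all genes tested were called. The count lower was 6 without CTRL replicate 1 and 5 without CTRL replicate 3 or RBM5 OE replicate 3, and the count higher was 1 without any single library other than CTRL replicate 2. Among those that fell, RUVBL1, shared by chromatin remodelling and acetyltransferase complexes, had 50.3 ± 2.74 CPM in RBM5 OE and 80.7 ± 4.51 CPM in CTRL (log2 fold change −0.68, SE 0.074, edgeR adjusted p = 4.61e-05), and ACTL6A, a subunit of the same kinds of complex, had a log2 fold change of −0.59. Of 17 MXD and MNT corepressors, 5 rose and 5 fell, with SAP30 (0.74) and ING2 (0.70) of the SIN3 complex higher and its scaffold SIN3B lower (−0.42). The count of corepressors higher was 2 without RBM5 OE replicate 2 and 3 without CTRL replicate 1 or RBM5 OE replicate 3. The smallest p of each list in RBM5 KO against CTRL belonged to KAT2A (−0.31, adjusted p = 0.236) and ARID4A (0.30, adjusted p = 0.248).

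Among 18 genes of MYC and MXD protein turnover, 3 rose and 3 fell in RBM5 OE against CTRL, and 6 rose without CTRL replicate 3. Of all genes tested in that comparison, 19.8% rose and 20.2% fell. FBXO32 rose by 1.10 and AURKA, a kinase that stabilises MYC proteins, by 0.67, while SKP2, which is also in the cell cycle list, fell. Of 11 partners of MGA in its Polycomb complex, 4 rose and 2 fell, with TFDP2 (0.55) and YAF2 (0.67) higher and L3MBTL2 lower (−0.55). The count of MGA partners higher was 2 without CTRL replicate 2 or RBM5 OE replicate 1 or 2, and the count lower was 1 without CTRL replicate 3 or any single RBM5 OE library. With lowered RBM5, AURKA had 0.27 (adjusted p = 0.223) and TFDP2 −0.25 (adjusted p = 0.24) against CTRL.

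Of 20 regulators of MYC transcription and mRNA, 19 were tested, and 4 rose and 7 fell in RBM5 OE against CTRL. Among all genes tested there, 19.8% were higher and 20.2% lower. The count higher was 1 to 2 whichever library was left out, and the count lower was 4 without RBM5 OE replicate 1. ZFP36L1, an RNA-binding protein that promotes decay of AU-rich mRNAs, had 128 ± 8.34 CPM in RBM5 OE and 29.7 ± 13.4 CPM in CTRL (2.12, SE 0.26, adjusted p = 9.12e-05). MEN1, the menin cofactor of KMT2A fusions, fell by −0.70 (SE 0.076, adjusted p = 4.41e-05), and IGF2BP2, which binds and stabilises MYC mRNA, by −0.53. KMT2A fell by −0.52 in RBM5 OE against RBM5 KO. In RBM5 KO, IGF2BP2 had −0.27 (adjusted p = 0.212) and PVT1, a long non-coding RNA beside MYC, 0.27 (adjusted p = 0.241) against CTRL.

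A list of 12 genes, called the repressed genes below, held ZBTB17 itself and genes that MYC represses with it. From this list 10 were tested in RBM5 OE against CTRL, where 5 rose and 3 fell. Without RBM5 OE replicate 2, 3 rose. Of all genes tested in that comparison, 19.8% were higher and 20.2% lower. KLF6 rose by 1.18 (SE 0.21, adjusted p = 0.00111) and the cyclin-dependent kinase inhibitor CDKN1B by 0.35, while CEBPD fell by −0.42. CDKN1A, the p21 inhibitor and a p53 target, had 210 ± 8.76 CPM in RBM5 OE and 483 ± 99.7 CPM in RBM5 KO (−1.20, SE 0.2, adjusted p = 0.000719). GADD45A, a growth arrest gene, had 0.67 in RBM5 KO against CTRL (adjusted p = 0.0826).

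For RBM5 KO against CTRL edgeR called 0 genes of the 4 target lists, the coactivators, the corepressors, the turnover genes, the MGA partners, the MYC regulators, the genes repressed with ZBTB17, DNA replication and cell division. Of all 14218 genes tested only 2.51% were called there, so 0 calls in lists of this size lie near that share. At an unadjusted p under 0.05 the counts were 7 of 73 targets, 2 of 17 coactivators, 1 of 17 corepressors, 3 of 18 turnover genes, 1 of 11 MGA partners, 3 of 19 regulators, 1 of 11 repressed genes, 0 of 12 DNA replication genes and 6 of 12 cell division genes. The share of all genes at that unadjusted threshold was not counted, so these counts have no background beside them. DESeq2 called 1 cell cycle target lower, 1 repressed gene higher and 2 cell division genes higher, while limma-voom and limma on log2(TPM + 1) called 0 in these lists. Without RBM5 KO replicate 1 and CTRL replicate 3 together, edgeR called 9 targets, 4 coactivators, 6 DNA replication genes, 1 MGA partner and 1 turnover gene lower, and 1 target, 1 turnover gene, 2 repressed genes and 3 cell division genes higher. Without RBM5 KO replicate 1 alone it called 8 targets, 2 coactivators and 5 DNA replication genes lower and 1 repressed gene higher.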

How the data were processed

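RNA of 9 MOLM13 libraries (3 RBM5 OE, 3 RBM5 KO, 3 CTRL) was extracted with TRIzol, depleted of ribosomal RNA and sequenced in pairs. Per the submitters' processing notes, reads were trimmed with Trim Galore, aligned with STAR 2.7.1a to hg19 (GRCh37), marked for duplicates with GATK 4.1.2.0 and counted with RSEM without strand information, although the paper's methods name Salmon. The deposited expected counts are RSEM estimates per gene, not scaled between libraries. The deposited TPM values are scaled by RSEM for transcript length and library and kept to 2 decimals. No per-sample column was left unmatched, and 92 spike-in rows with 0 counts were left out.

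Expected counts were rounded and tested in R 4.3.3 with edgeR 4.0.16 (filterByExpr, TMM, quasi-likelihood, Benjamini-Hochberg over all genes tested). Each group was compared with CTRL in its own 6 libraries, and RBM5 OE with RBM5 KO in all 9. An adjusted p in the text is from edgeR unless another tool is named. Fold changes are first group over second. Alternatives were DESeq2 1.42.0, limma-voom and limma 3.58.1 on log2(TPM + 1) and log2(TPM + 0.1), RLE scaling, library totals, no filter, a CPM of at least 1 in 3 libraries, the other set of libraries, a replicate block and leaving out libraries. The members and the 15 gene lists were chosen with earlier results of these data known. List counts under the alternatives were added after the data were seen. Named genes were all members, RBM5, the extended network, and of each other list and comparison up to 3 called genes with the smallest p, or 2 where none was called. Some genes that this rule or the marker lists take in are counted with their lists but not reported here. The nearest patterns were taken over the 9 libraries for MYC and for the other member with the largest range of group means. FNTB, PRELID1 and RAB24, which overlap members, were added after their values were seen. The fits were tested on simulated data with known changes, all larger than the log2 fold changes of the members in the main fits. Recovery of changes as small as those of the members was therefore not tested. Within groups, library pairs differed beyond counting noise (chi-square per degree of freedom 3.91 to 41.1). This is an average over genes on rounded RSEM estimates, which a few genes with high counts can raise. Whether any library was a repeat sequencing of another, or came from a separate culture, therefore cannot be told from this. Promoters are RefSeq windows (GRCh38.p14), and coordinates are from GENCODE on GRCh37. Figures were drawn with matplotlib.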

Additional observations from a re-analysis of the deposited data

How the results depend on the processing

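Of 424 member values recomputed under the alternatives, 387 kept direction and call, 20 lost a call, 6 gained one and 11 changed sign, all for MAX and MNT near 0. With library totals alone MAX and MNT were at 0.03 each in RBM5 OE against CTRL, and with the CPM filter MAX was at 0. Leaving out 1 library put MAX at −0.02 to 0 in RBM5 OE and −0.07 to 0.04 in RBM5 KO against CTRL, MAX at −0.06 to 0.06 in RBM5 OE against RBM5 KO, and MNT at −0.05 to 0 in RBM5 OE against CTRL. On the log2(TPM + 1) and log2(TPM + 0.1) scales the members called were 3 and 3 in RBM5 OE against CTRL, and 0 and 0 in RBM5 KO against CTRL. In RBM5 KO the count was 0 to 2 with 1 library left out and 3 without RBM5 KO replicate 1 and CTRL replicate 3 together, which for RBM5 OE against CTRL is the same as leaving out CTRL replicate 3. The share of MYC was 57.1% in RBM5 OE, 59.2% in RBM5 KO and 68.6% in CTRL with CPM, and 66.7% in RBM5 OE and 79.4% in CTRL without MGA. With CPM the libraries of RBM5 OE and RBM5 KO no longer separated in this share. Why these values moved was not tested.

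Between same-numbered libraries of RBM5 KO and CTRL, deviations from the group mean had correlations of −0.24 to 0.10. Within groups of so few libraries these deviations depend on each other. Whether the numbers pair the samples therefore cannot be told from these correlations. With the replicate block 0 members were called in RBM5 KO against CTRL (MYC adjusted p = 0.138), and no other member call changed.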

Other observations

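Myeloid maturation genes, which MXD1 is known to accompany in differentiating cells, were counted beside the network. In RBM5 OE against CTRL 5 of 12 tested genes rose and 6 fell, and in RBM5 KO against CTRL 5 of 13 rose and 0 fell. Over all genes tested the shares higher and lower were 19.8% and 20.2% in RBM5 OE, and 0.837% and 1.67% in RBM5 KO. LYZ, the lysozyme of granulocytes and monocytes, had 535 ± 9.87 CPM in RBM5 OE, 2220 ± 113 CPM in RBM5 KO and 1310 ± 93.5 CPM in CTRL (SD, n = 3 each). It fell in RBM5 OE by −1.29 on the log2 scale (adjusted p = 4.3e-07) and rose in RBM5 KO by 0.76 (adjusted p = 0.00524). MNDA, a nuclear antigen of myeloid differentiation, rose by 1.10 in RBM5 KO against CTRL and fell by −2.01 in RBM5 OE against RBM5 KO. CYBB, the phagocyte oxidase subunit, rose by 1.19 in RBM5 OE against CTRL. Within the lists, the median log2 difference of RBM5 KO replicate 1 from the rest of its group was −0.76 for maturation and 0.54 for cell cycle targets, and that of CTRL replicate 3 was −0.43 and 0.24. The maturation genes that rose in RBM5 KO against CTRL numbered 8 without both libraries, 2 without CTRL replicate 1 and 3 without CTRL replicate 2. Those that rose in RBM5 OE against CTRL numbered 2 without RBM5 OE replicate 1 or 3, 3 without RBM5 OE replicate 2 and 1 with all 9 libraries in the fit.

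Of 14 type I interferon genes, 2 were higher and 0 lower in RBM5 OE against CTRL, and 3 were lower without CTRL replicate 3. Over all genes tested there, 19.8% were higher and 20.2% lower. The genes called were RSAD2 (1.39, SE 0.3, adjusted p = 0.00365) and IRF7 (0.54, adjusted p = 0.00789). RSAD2 was low, with a mean of 2.67 CPM in RBM5 OE and 1.02 CPM in CTRL. In RBM5 KO against CTRL edgeR called 0 higher (2 of 14 at an unadjusted p under 0.05, and 0 by DESeq2 and limma-voom), against 5 without RBM5 KO replicate 1 and 7 without both libraries. With no library left out, 0.837% of all genes tested were called higher there. The share of all genes at the unadjusted threshold was not counted. Against RBM5 KO, 1 rose and 1 fell in RBM5 OE, with RSAD2 at 1.34 and IFI6 at −1.27. Of all genes tested in that comparison, 19.5% were higher and 20.6% lower. Without both libraries 10 of the list were lower in RBM5 OE than in RBM5 KO.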
